A study of Mus musculus with 30 samples.

Results

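The genes described are 38 members of the hypoxia response and of glycolysis: 14 genes of the glycolytic pathway and 24 other genes of the pathway of the hypoxia-inducible factors (HIF). Members were found by gene symbol, as the array's annotation gives it. Of the 38 symbols, 35 had a probe set that carried 1 gene symbol, 12 glycolytic and 23 other, out of 18193 such genes on the array. These 35 had 85 of the array's 45101 probe sets, and each gene was read from its brightest one. Bnip3l had only probe sets of several symbols, and Eno1 and Gpi1 had none under those symbols, so these 3 genes have no values here. Each of the 35 passed the filter on low signals in every comparison below but one, Olig2 arrays against untransduced null arrays, which tested 33 (without Ddit4l and Slc16a3).

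HIF is a pair of basic helix-loop-helix proteins, an oxygen-regulated alpha subunit (Hif1a or Epas1) and a constant partner. In oxygen, prolyl hydroxylases of the Egln family mark the alpha subunit for destruction; in low oxygen, or where growth factor signalling raises its synthesis, it accumulates and binds short DNA elements near its targets. The targets carry glucose into the cell (Slc2a1, Slc2a3) and raise the enzymes that split it to pyruvate and lactate. Others shut pyruvate dehydrogenase (Pdk1), start mitochondrial removal (Bnip3) and call in vessels (Vegfa, Adm). In the developing brain, neural progenitors rely more on glycolysis than their neuronal descendants, and in glioma the same genes mark hypoxic tumour regions.

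RNA was measured on 30 Affymetrix Mouse Genome 430 2.0 arrays, of which 22 were of neurospheres, floating cultures of neural progenitors. These came from ganglionic eminences of E14.5 mouse embryos of mixed Swiss and C57BL/6J background, grown without serum in EGF and bFGF. All neurospheres, controls included, were Ink4a/Arf-/- and carried EGFRvIII, a constantly active mutant EGF receptor, by retrovirus with puromycin selection. Untransduced here means without a further virus: 3 wild-type cultures (lines 2, 3 and 20), 3 heterozygous cultures (lines 11, 15 and 26) and 6 Olig1/2 null cultures (lines 12, 13, 14, 16, 21 and 24). Heterozygous lines 11 and 15 and null lines 12, 13 and 14 also gave 1 array each with a GFP retrovirus and 1 with an Olig2 retrovirus, both under blasticidin selection. The 8 tissue arrays held forebrain and spinal cord, both from each of 4 embryos at E18.5, of which 1 and 2 were null and 3 and 4 heterozygous. Genotypes of the embryos are labelled by Olig2 alone, and by Olig1/2 in the design of the series. The passage of each culture at harvest lay between P4 and P15 and is not given per array.

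Values are MAS5 signals on a linear scale, scaled by the authors to a trimmed mean of 500 on each array, and differences are on the scale of log2(signal + 16). Genes are described as called where limma's moderated test gave an adjusted p under 0.05, and "rose" and "fell" are used of called genes. Median signals over all probe sets ran from 128.9 to 217.4. The lowest was the array of null line 13 with GFP virus, which also had the highest A260/A280 ratio (2.83) and the highest log2 ratio of the 3' to the 5' control probe set of Gapdh (0.43), a measure of RNA degradation. In bulk RNA, fewer cells of a type and less RNA per cell cannot be told apart.

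The labels were checked on their target genes. Olig1 read 26610 ± 4135 in wild-type lines and 22820 ± 2567 in heterozygous ones (SD, n = 3 each), and 8068 ± 1018 in null lines (SD, n = 6). The Olig2 probe set was not higher with the virus labelled Olig2: in null lines it read 6720 ± 2918 against 9168 ± 1015 with GFP (SD, n = 3 each). The sources used here do not place that probe set relative to the deleted or the delivered sequence, so it checks nothing, and every direction between the virus groups rests on the labels. Id4, an inhibitor of helix-loop-helix factors, read 2573.9 to 3406.8 in untransduced null lines. It read 117 to 202.2 in wild-type and 64.4 to 200.3 in heterozygous ones. In both tissues its null and heterozygous values overlapped. On the 3 null arrays labelled Olig2 virus Id4 read 429 to 1169.8, and 2671.5 to 4344.7 on the 3 with GFP.

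HIF binds a core of the letters ACGTG or GCGTG, and the windows that hold or lack this core are shown for members whose signals differed most reliably between the Olig2 and GFP virus groups of the null lines. Sequences are the 250 bases before a gene's start in RefSeq's annotation of GRCm38.p6, read on the gene's strand, with each match on either strand in capitals (CACGT and CACGC are the letters of the opposite strand; where they overlap, as in CACGTG, both strands match). Of the 35 members, 32 had such a window. The first 5 are the members of smallest p in that comparison that have one, and Egln1 is the member of largest p. They lie at chr7:138909507-138909756 (minus strand, Bnip3), chr2:71872974-71873223 (plus, Pdk1), chr19:41911621-41911870 (plus, Pgam1), chr17:46032378-46032627 (minus, Vegfa), chr19:27216234-27216483 (plus, Vldlr) and chr8:124949255-124949504 (minus, Egln1).
Bnip3: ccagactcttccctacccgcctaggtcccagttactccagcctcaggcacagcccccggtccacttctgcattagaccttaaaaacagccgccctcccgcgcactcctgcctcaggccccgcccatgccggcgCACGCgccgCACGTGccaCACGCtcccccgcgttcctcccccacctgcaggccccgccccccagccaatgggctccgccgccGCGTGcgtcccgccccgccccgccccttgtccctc
Pdk1: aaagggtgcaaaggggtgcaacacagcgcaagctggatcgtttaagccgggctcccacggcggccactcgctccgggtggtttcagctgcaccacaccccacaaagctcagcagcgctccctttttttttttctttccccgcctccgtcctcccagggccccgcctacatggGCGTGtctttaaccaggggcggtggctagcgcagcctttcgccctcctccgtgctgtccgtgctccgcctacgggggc
Pgam1: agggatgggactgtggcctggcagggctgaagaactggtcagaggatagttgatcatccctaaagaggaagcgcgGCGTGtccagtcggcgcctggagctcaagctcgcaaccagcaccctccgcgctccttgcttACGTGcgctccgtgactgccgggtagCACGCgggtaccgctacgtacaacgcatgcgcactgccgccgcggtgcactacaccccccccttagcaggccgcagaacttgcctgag
Vegfa: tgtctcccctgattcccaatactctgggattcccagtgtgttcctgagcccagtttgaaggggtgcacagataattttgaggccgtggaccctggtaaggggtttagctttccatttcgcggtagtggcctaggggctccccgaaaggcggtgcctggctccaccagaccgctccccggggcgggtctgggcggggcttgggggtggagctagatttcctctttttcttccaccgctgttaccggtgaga
Vldlr: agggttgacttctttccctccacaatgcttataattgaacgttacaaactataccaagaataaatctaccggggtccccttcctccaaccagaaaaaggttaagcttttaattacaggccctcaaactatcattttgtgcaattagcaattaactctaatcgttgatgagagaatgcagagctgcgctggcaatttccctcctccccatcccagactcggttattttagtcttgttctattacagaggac
Egln1: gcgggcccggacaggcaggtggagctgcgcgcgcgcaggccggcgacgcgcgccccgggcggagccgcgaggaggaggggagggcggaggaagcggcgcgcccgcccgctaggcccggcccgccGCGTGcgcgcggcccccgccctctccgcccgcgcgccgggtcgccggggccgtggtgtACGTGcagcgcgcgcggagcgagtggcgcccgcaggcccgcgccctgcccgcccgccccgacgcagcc

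Bnip3, which encodes a mitochondrial receptor for autophagy, had 5 matches, and the one nearest the start begins 35 bases before it. Pdk1, whose kinase shuts pyruvate dehydrogenase, had 1 match in the window shown and 0 in that of a second listed start. The glycolytic mutase gene Pgam1 had 3. The windows shown for the vessel growth factor gene Vegfa and the lipoprotein receptor gene Vldlr hold no match, although a second start listed for Vegfa has 2 in its window. Egln1, an oxygen-sensing hydroxylase whose chosen probe set had the largest p between the virus groups, though another of its probe sets was called higher, had 2. Over all members, 38 of 49 windows (77.6%) held a match, against 38.6% of the 32851 windows of that length in the table. Among members that rose with the virus labelled Olig2 in null lines the share was 70.0% (14 of 20 windows), and among those with no call there it was 82.8% (24 of 29). The share was not higher for windows of called members than for those of members with no call. Having no call does not show that a member was unmoved, and some genes have several windows. A match or its lack in these letters is a description, not a measured binding site.

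The comparison of untransduced cultures asks which transcripts depend on Olig1 and Olig2. Null cultures were set against the 6 wild-type and heterozygous cultures together, called Olig-expressing here. Of the 35 members, 1 rose and 6 fell in null cultures, 20% of the members, against 8.32% of the 12022 genes tested (4.34% higher and 3.98% lower). The median difference was -0.25 over the members and -0.02 over all genes tested. The glycolytic genes gave 1 higher and 2 lower calls among 12 (median -0.21) and the other HIF genes 0 higher and 4 lower among 23 (median -0.26). Members differed in direction, and the groups of 6 and 6 arrays did not overlap for 3 of the 35, against 4.46% of all genes tested.

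The widest gap was in Ddit4l, which encodes a stress-induced inhibitor of mTORC1 related to Ddit4. Its signal was 2746.8, 1734.7 and 2924.5 in wild-type lines 2, 3 and 20, and 968.2, 693.7 and 1055.5 in heterozygous lines 11, 15 and 26. In the 6 null lines it ran from 126.2 to 470.2 with a median of 219.5. The 3 genotypes formed 3 bands with no overlap between any of them. Ddit4l fell by 2.59 ± 0.30 (SE) in null against Olig-expressing cultures (adjusted p 0.000116), by 3.29 ± 0.37 against wild-type (adjusted p 0.000104) and by 1.88 ± 0.37 against heterozygous cultures (adjusted p 0.0105). These 3 comparisons share the null arrays. Between heterozygous and wild-type cultures its difference was -1.42, which was not called (adjusted p 0.479).

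Pfkfb3, the enzyme whose product is the strongest activator of phosphofructokinase, went the other way. Its signal ran from 651.7 to 1525.8 in null lines (median 1076.35), from 152 to 453.1 in wild-type and from 168.1 to 401.2 in heterozygous lines. No null array overlapped with any other untransduced array. Pfkfb3 rose by 1.81 ± 0.28 (SE) against Olig-expressing cultures (adjusted p 0.00096); with the Gapdh 3' to 5' ratio as a covariate the adjusted p was 0.0562. It was the only glycolytic gene of the 12 that was higher by the test. Vldlr, a receptor for apolipoprotein E and reelin that HIF induces, ran from 884.3 to 1427.8 in null lines (median 1088.1) against 1811 to 2824.6 in wild-type and 2055.7 to 3092.4 in heterozygous lines. It fell by 1.08 ± 0.14 (SE; adjusted p 0.000266), again with no overlap.

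**Figure D1:**
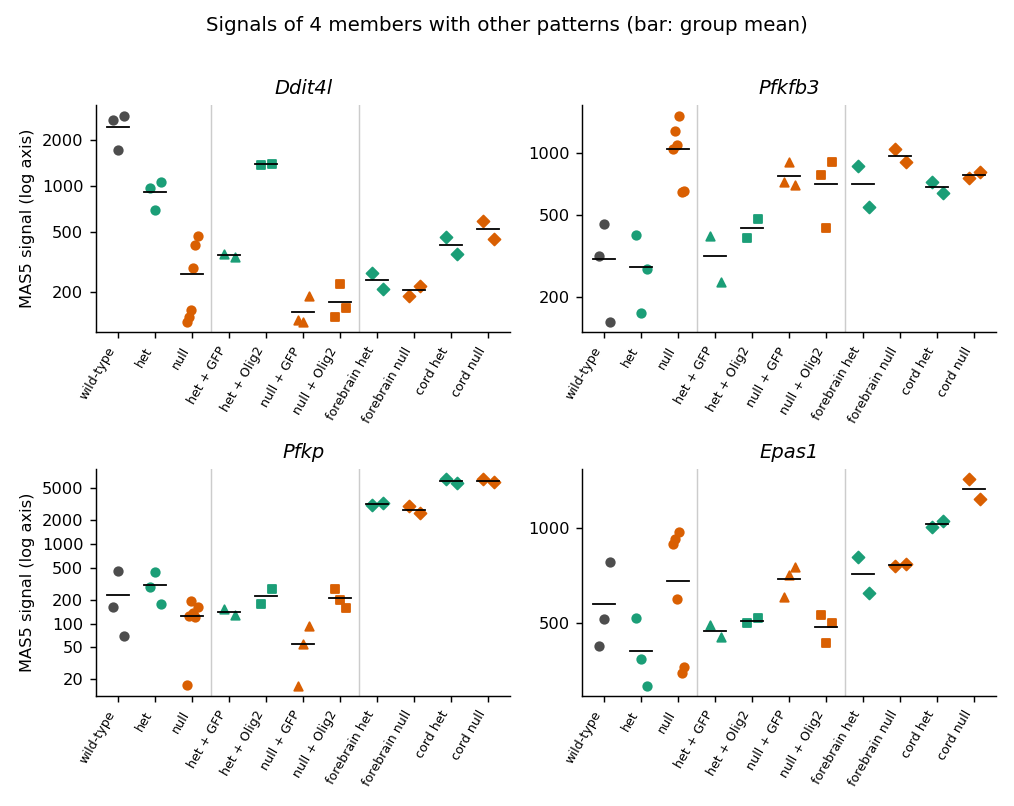
MAS5 signal (log axis) of Ddit4l, Pfkfb3, Pfkp and Epas1 on each of the 30 arrays, by group; grey is wild-type, green heterozygous and orange null, circles are untransduced cultures, triangles GFP virus, squares Olig2 virus and diamonds tissues, and the bar is the group mean. Ddit4l is highest in wild-type cultures and lowest in null cultures, and Pfkfb3 is above all other untransduced cultures in the 6 null ones.

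Of the 12 glycolytic genes, Ldha and Aldoa were called lower in null cultures. Ldha, which turns pyruvate to lactate, ran from 17123.7 to 24055.5 in null lines (median 21736.75), from 23257.3 to 29295.2 in wild-type and from 27927.5 to 31550.4 in heterozygous lines. It fell by 0.41 ± 0.09 (SE; adjusted p 0.00821), although the wild-type line 20 lay inside the null range. Aldoa, the aldolase of most tissues, read 13270 ± 2172 (SD, n = 6) in null and 18260 ± 2600 (SD, n = 6) in Olig-expressing cultures and fell by 0.47 ± 0.12 (adjusted p 0.0245). Tpi1, Pgam1 and Pgk1 differed by -0.52, -0.43 and -0.24 with no call. Pkm, Pfkl, Hk1, Hk2 and Aldoc had no call either. The upstream enzyme genes Pfkp (-0.97, adjusted p 0.272) and Hk2 (0.32, adjusted p 0.345) lay on opposite sides of 0.

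Among the other HIF genes, the glucose transporter gene Slc2a1 ran from 585.6 to 1007.5 in null lines (median 801.25), from 745.3 to 1397.1 in wild-type and from 1091.8 to 1925.1 in heterozygous lines. It fell by 0.67 ± 0.19 (SE; adjusted p 0.0396). Ankrd37, a small ankyrin repeat protein and a strong HIF target, ran from 101 to 184 in null lines (median 142.35), from 158.2 to 432.7 in wild-type and from 237 to 840.3 in heterozygous lines. It fell by 1.20 ± 0.30 (adjusted p 0.0224). Wild-type line 20 was low in both genes. Other canonical targets were not called in this comparison: Bnip3 differed by -0.81 (adjusted p 0.24), Slc2a3 by -0.83 (0.152), Vegfa by -0.50 (0.3) and Pdk1 by -0.46 (0.449).

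The HIF genes varied widely between lines of a genotype. Bnip3 read 1520.9, 3066.8 and 645.8 in wild-type lines 2, 3 and 20, and 3680, 1732.1 and 1049.4 in heterozygous lines 11, 15 and 26. Relative to its mean over the 22 neurosphere arrays, the median HIF gene was 0.60 higher in wild-type line 3, 0.69 higher in heterozygous line 11, and stood at -0.52 in wild-type line 20 and -0.62 in null line 21. Ddit4l and Vldlr were called without any 1 of the 12 arrays and under each other setting tried. Ldha kept its call likewise, but its only probe set is marked as shared between genes. The setting without such probe sets could therefore not test it. Pfkfb3 was called without any 1 array. Aldoa was lost without wild-type line 2 or 3 or heterozygous line 11, Ankrd37 without wild-type line 3, heterozygous line 11 or null line 12, and Slc2a1 without any of 8 arrays (wild-type 2 and 3, heterozygous 11 and 15, null 14, 16, 21 and 24) and without the filter on low signals. The count fell from 7 to 4 without wild-type line 3 or without heterozygous line 11. Over all 12022 genes tested, calls went from 1000 to 817 and to 762.

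Against wild-type cultures alone 3 members were called (6.7% of all genes were, 3.86% higher and 2.84% lower): Pfkfb3 rose and Ddit4l and Vldlr fell. Against heterozygous cultures alone 5 were called (3.51% of all genes were, 2.15% higher and 1.36% lower), the same 3 with Ldha, which fell by 0.47, and Ankrd37, which fell by 1.55. Without heterozygous line 11, and likewise without line 15, 2 members were called in the latter comparison. Vldlr alone of the 5 was called without any 1 array there, and it lost that call with probe sets not marked as shared between genes. Against wild-type cultures Pfkfb3 lost its call with the Gapdh covariate. The Gapdh 3' to 5' log2 ratio was -0.3258 to -0.2625 in wild-type and -0.2581 to -0.134 in null lines, without overlap. In heterozygous lines it was -0.235 to -0.211, inside the null range. Between heterozygous and wild-type cultures limma called 0 members (0.0333% of all genes), and 2 of 35 had an unadjusted p under 0.05 (6.65% of all genes). Some cell type markers moved with genotype beside these members. Of 6 oligodendrocyte precursor and oligodendrocyte markers tested, 3 were lower in null cultures, Olig1 and Olig2 themselves and Cspg4. Sox10 (-0.21), Pdgfra (-0.10) and Mbp (0.16) had no call. The summed signal of the 6 was 13860.8 to 20741.3 in null against 36710 to 51180.8 in the other cultures. This sum includes Olig1 and Olig2. Of the neuron markers tested, Gap43 (-3.04) was lower, while Dcx (1.20) and Syt1 (-0.29) had no call. Of the astrocyte markers, Gja1 (-1.77) was lower and Aldh1l1 (1.57) higher. Gfap (2.19), Slc1a3 (0.31), Slc1a2 (0.22), Aqp4 (-0.59) and S100b (-0.77) had no call. Of the stem cell markers, Prom1 (2.10) was higher and the others had no call. The part of these markers in the members' differences was not tested.

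Neighbouring pathways were read from lists that hold none of the members. Of 18 genes of pyruvate oxidation, the citric acid cycle and the respiratory chain, 14 fell in null against Olig-expressing cultures and 0 rose, with a median of -0.33. The isocitrate dehydrogenase subunit gene Idh3a fell by 0.86 (adjusted p 2.44e-05), the pyruvate dehydrogenase subunit gene Pdha1 by 0.57, the complex I subunit gene Ndufb5 by 0.50 and the citrate synthase gene Cs by 0.47. Of 12 other genes of sugar metabolism, 2 fell: Ldhb by 0.88 and Pgm1 by 0.90. Of 28 other HIF pathway genes limma called 0, and 5 had an unadjusted p under 0.05. Of 12 genes of the integrated stress response 2 fell, Trib3 by 0.97 and Shmt2 by 0.55.

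The virus arrays ask what returning Olig2 does to null cells, with GFP virus as the control. In null lines, 15 of 35 members rose with the virus labelled Olig2 and 0 fell, so 42.9% were called against 7.88% of the 12458 genes tested, of which 3.24% were higher and 4.64% lower. The median difference was 0.43 over the members and 0.03 over all genes. The glycolytic genes gave 6 calls among 12 (median 0.44) and the other HIF genes 9 among 23 (median 0.43). All 3 Olig2 arrays lay above all 3 GFP arrays for 18 members and below them for 2, Hif1a and Epas1; of all genes tested, 13.8% lay fully above and 14.8% fully below. Scaling by the 75th percentile shifted the all-gene median by -0.12, and 12 members were higher and 2 lower; the glycolytic calls then fell from 6 to 3, without Aldoa, Ldha and Tpi1, and the lower calls were Hif1a and Epas1. With quantile scaling 14 were higher and 1, Epas1, lower.

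**Figure D2:**
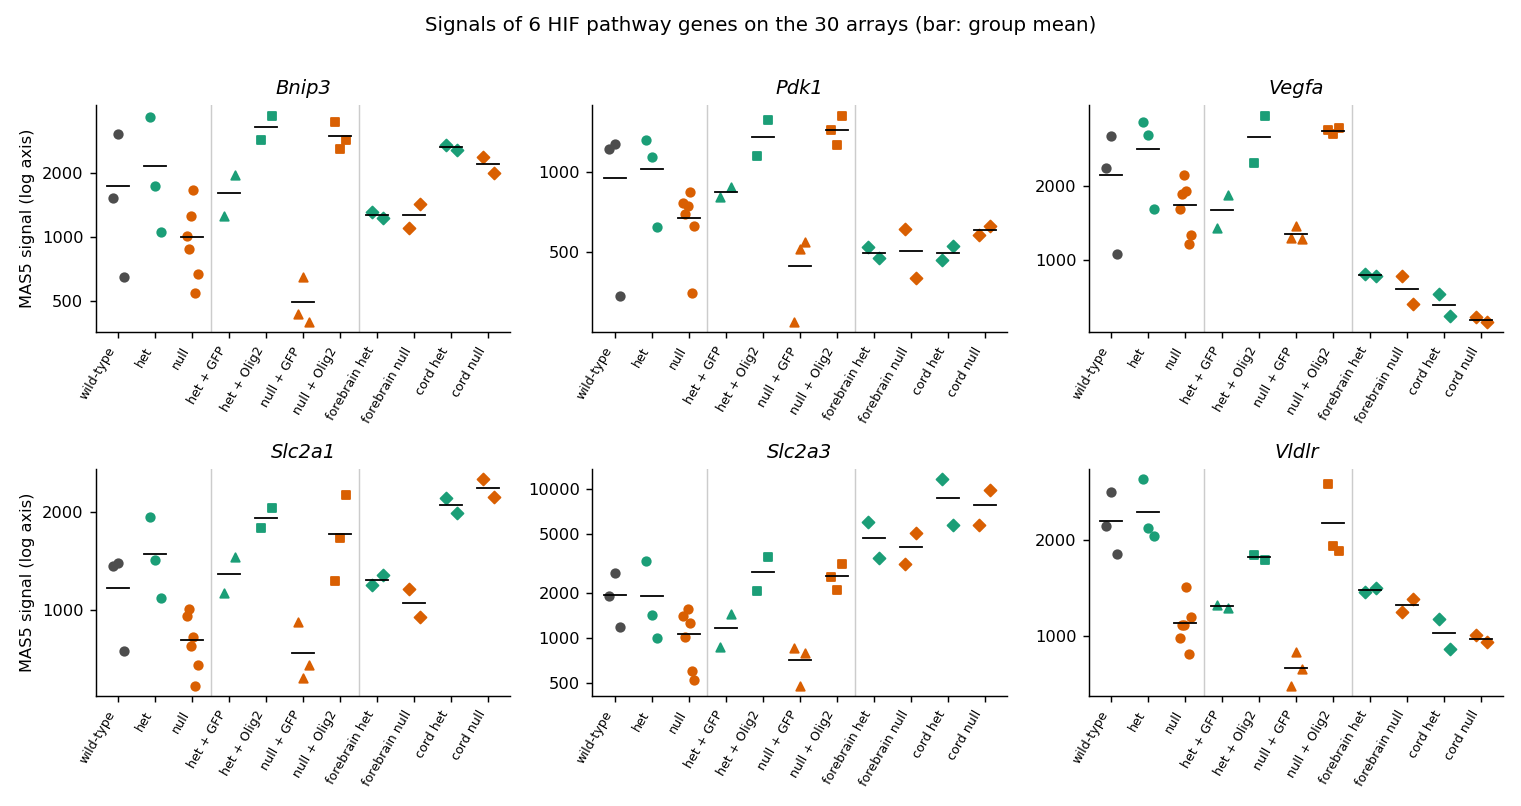
MAS5 signal (log axis) of Bnip3, Pdk1, Vegfa, Slc2a1, Slc2a3 and Vldlr on each of the 30 arrays, by group; colours and symbols mark genotype (grey wild-type, green heterozygous, orange null) and treatment (circles untransduced, triangles GFP virus, squares Olig2 virus, diamonds tissues), and the bar is the group mean. In all 6 panels the 3 null arrays labelled Olig2 virus lie above the 3 null arrays with GFP virus.

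Both glucose transporter genes rose. Slc2a3, the high-affinity transporter of neurons and of hypoxic cells, read 863.8, 483.7 and 800.4 with GFP in lines 12, 13 and 14, and 2585.9, 2112 and 3123.7 with the virus labelled Olig2. Each line's pair differed the same way with no overlap between the groups. Slc2a3 rose by 1.87 ± 0.27 (SE; adjusted p 0.00371). Slc2a1, the basal transporter, read 738.9 ± 160 with GFP and 1714 ± 513 with Olig2 (SD, n = 3 each) and rose by 1.17 (adjusted p 0.011). The lactate exporter gene Slc16a3 had no call (0.14).

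Of the glycolytic enzymes, Pfkp, the platelet form of phosphofructokinase, read 16.6, 54.9 and 93.7 with GFP and 272.2, 199.7 and 157 with the virus labelled Olig2. The groups did not overlap, but the GFP signal of line 12 was close to the added 16, which compresses its difference. Pfkp rose by 1.80 ± 0.47 (SE; adjusted p 0.0391), and with the culture line as a block the adjusted p was 0.0696. The liver form Pfkl rose by 0.86 (adjusted p 0.0194), Pgam1 by 0.70 (0.00689), Tpi1 by 0.61 (0.019), Ldha by 0.48 (0.0224) and Aldoa by 0.40 (0.036). Each of these 6 enzymes had its 3 Olig2 arrays above its 3 GFP arrays. Hk1, Hk2, Pgk1, Pkm, Aldoc and Pfkfb3 had no call, Aldoc with 0.70 (adjusted p 0.0821) and Pkm with -0.04. Pfkfb3 signals were 729.7, 906 and 701.2 with GFP and 786.9, 435 and 907.5 with Olig2, so the gene that was high in null cultures was read at overlapping levels in both virus groups (-0.19, SE 0.27, adjusted p 0.71).

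Of the members that act on mitochondria, Bnip3 and Pdk1 were called and Higd1a and Ak4 were not. Bnip3 read 431.7, 645.2 and 398.1 with GFP and 3486.9, 2580.4 and 2867.6 with the virus labelled Olig2. It rose by 2.58 ± 0.22 (SE; adjusted p 0.000294), the largest difference of any member in this comparison and 5.98-fold. Pdk1 read 272.3, 510.2 and 543.8 with GFP and 1433, 1258.2 and 1629.4 with Olig2. It rose by 1.72 ± 0.24 (adjusted p 0.0028) with no overlap. Higd1a and Ak4 differed by 0.23 and -0.03.

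Vegfa read 1226.9, 1372.1 and 1218.7 with GFP and 3379.9, 3250.8 and 3424 with the virus labelled Olig2, with a spread within each group far below the gap. It rose by 1.39 ± 0.17 (SE; adjusted p 0.00162). Ddit4, the mTORC1 inhibitor REDD1, read 1501.3, 1512 and 1752.6 with GFP and 4327.3, 4606.2 and 3029.3 with Olig2 and rose by 1.30 ± 0.25 (adjusted p 0.0129). Its relative Ddit4l stayed at the null level in both virus groups, at 130.2, 126.3 and 187 with GFP and 137, 224 and 155.1 with Olig2 (0.19, adjusted p 0.648). Adm, the vessel-dilating peptide adrenomedullin, had no call (-0.35, adjusted p 0.511), nor had the acid-base enzyme gene Car9 (0.10).

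Vldlr read 702.9, 895.9 and 789.3 with GFP and 2979.7, 1920.5 and 1849.5 with the virus labelled Olig2. It rose by 1.45 ± 0.18 (SE; adjusted p 0.00166), so the gene that was low in null cultures was high on the Olig2 arrays. Ankrd37 read 163, 140 and 109.7 with GFP and 365.3, 326.1 and 351.6 with Olig2 and rose by 1.26 ± 0.25 (adjusted p 0.0143). The collagen hydroxylase genes P4ha1 and P4ha2 (0.43 and 0.83), the histone demethylase gene Kdm3a (0.36), Ndrg1 (0.87) and Mxi1 (0.40) were positive with no call.

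The oxygen sensors themselves did not move as a group. The hydroxylase gene Egln3, a HIF target that limits HIF in turn, rose by 1.10 (adjusted p 0.0372), while Egln1 differed by -0.02 (0.961); another Egln1 probe set was called higher (0.75, adjusted p 0.0244, over all probe sets). Hif1a read 4928.7, 4499.5 and 4040.7 with GFP and 3343.9, 2833.6 and 3546 with the virus labelled Olig2, without overlap (-0.47, adjusted p 0.0709). Epas1 (HIF-2 alpha) read 603.3, 711.4 and 751.5 against 528.9, 429.8 and 497.5, again without overlap (-0.49, adjusted p 0.0801). Both alpha subunit genes were thus lower on each Olig2 array but not called in the fit as described. Another, dimmer probe set of Hif1a went the opposite way, from 303.3, 191.1 and 252.5 to 613.7, 504.8 and 403.6. It was called higher (0.98, adjusted p 0.0356, over all probe sets). Another was at -0.47 like the first. The dimmest probe set of Hif1a read 153.9, 55.6 and 44.6 with GFP and 296.8, 188.2 and 212.6 with the virus labelled Olig2. The direction of Hif1a thus differs between its probe sets. Over all 79 member probe sets tested, 36 were higher and 0 lower, while 1787 of all 22404 probe sets tested were called in either direction. All 4 probe sets of Pdk1, all 4 of Vldlr, all 3 of Slc2a1 and both of Vegfa were higher.

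**Figure D3:**
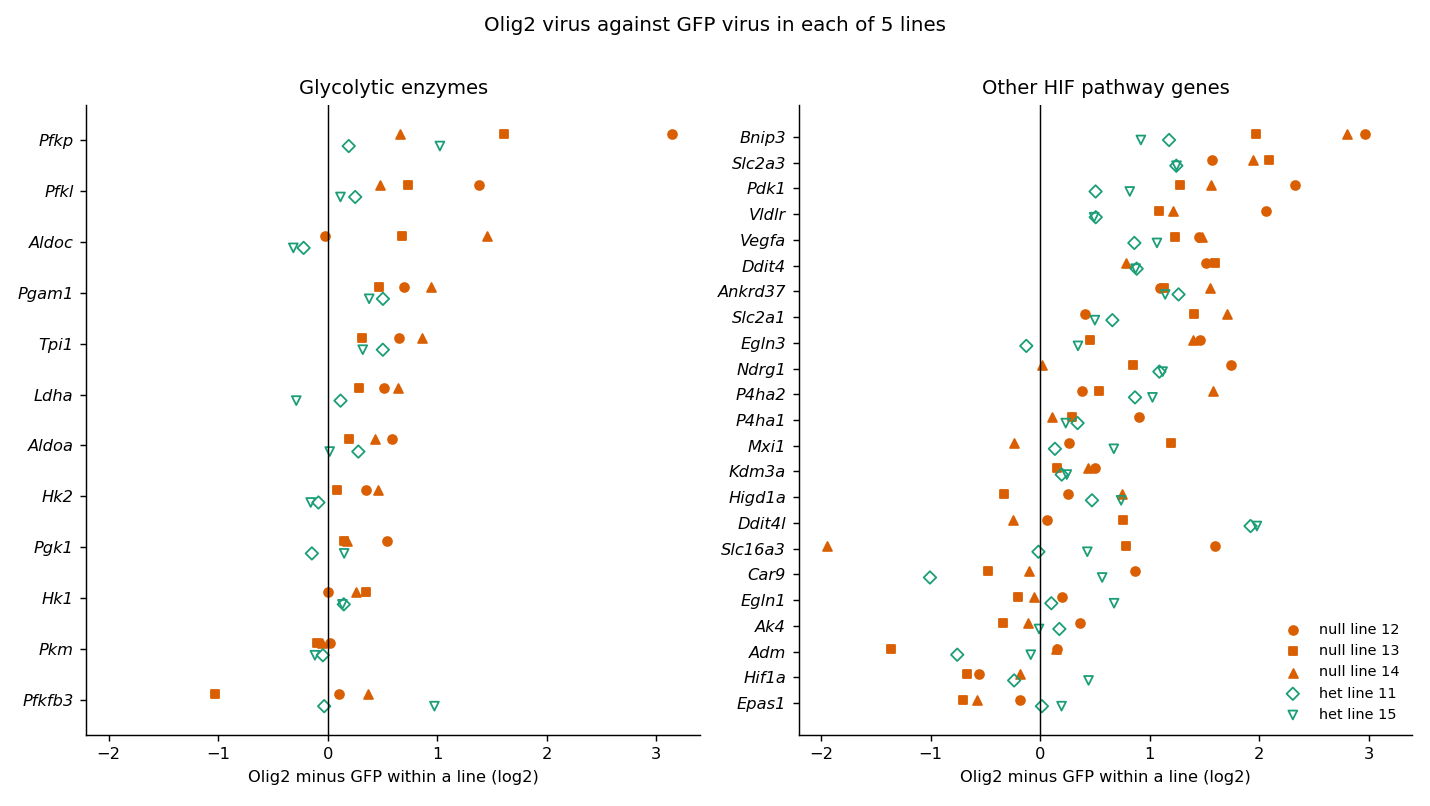
Difference in log2(signal + 16) between the Olig2 and the GFP array of the same culture line, for the 12 glycolytic (left) and 23 other HIF genes (right); filled orange symbols are null lines 12, 13 and 14 and open green symbols heterozygous lines 11 and 15. The median HIF gene was positive in all 5 lines, and the median glycolytic gene lay at 0.30 or more in the null lines and at 0.12 and 0.13 in the heterozygous lines.

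The direction held in each culture line. The median HIF gene was 0.87 higher on the Olig2 array in null line 12 (21 of 23 genes higher), 0.75 in line 13 (16 of 23) and 0.43 in line 14 (15 of 23). The median glycolytic gene was 0.53, 0.30 and 0.46 higher (11, 10 and 11 of 12 genes). The median of all genes tested lay within 0.04 of 0 in those 3 lines. Bnip3, Pdk1, Slc2a3, Vegfa and Vldlr were called without any 1 array and under every other setting tried, and Pgam1 and Slc2a1 without any 1 array. The count fell from 15 to 7 without the Olig2 array of line 12 and to 9 without that of line 13. Over all 12458 genes tested, calls went from 982 to 304 and to 358.

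RNA quality moved with the virus groups. The Gapdh 3' to 5' log2 ratio was -0.09, 0.43 and -0.04 on the null GFP arrays of lines 12, 13 and 14 and -0.20, -0.20 and -0.25 on the Olig2 arrays, with no overlap. With this ratio as a covariate 7 members were called, all higher: Bnip3, Pdk1, Pgam1, Slc2a3, Tpi1, Vegfa and Vldlr. Over all 12458 genes tested, calls went from 982 to 227 with the covariate. Without the GFP array of line 13, 13 members were called. Of the 7 astrocyte markers 2 were also higher with the virus labelled Olig2, S100b (2.25) and Aqp4 (2.17). The others had no call, and Aldh1l1 among them lay the other way (-1.80). Their summed signals overlapped, at 11277.7 to 20518.3 against 7521.7 to 18696.1 with GFP. The stem cell marker Fabp7 was higher too (0.60). The part of cell composition was not tested. Of 6 proliferation genes limma called 0, with 1 at an unadjusted p under 0.05.

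The choice of control mattered to the size. GFP arrays were themselves below the untransduced arrays of the same 5 lines for 32 of 35 members, with a median of -0.47 over the HIF genes and -0.17 over the glycolytic genes, against 0.01 over all genes. In that comparison limma called 0 members (0.0241% of all genes), while 14 of 35 (40%) had an unadjusted p under 0.05, against 12.6% of all genes, led by Vegfa (-0.83, adjusted p 0.0641), Vldlr (-0.73, 0.0874) and Pgam1 (-0.41, 0.188). Vegfa was called at an adjusted p of 0.0485 with quantile scaling. It read 3616.9, 1604.9, 1847.7, 2205.3 and 3217.2 untransduced and 1352.2, 1226.9, 1372.1, 1218.7 and 1835 with GFP in lines 11 to 15, lower in each line. Vldlr read 3092.4, 986.2, 1088.3, 1087.9 and 2181.4 untransduced and 1254.7, 702.9, 895.9, 789.3 and 1229.1 with GFP, also lower in each line. The lines were unlike: the median HIF gene lay at -0.75, -0.24, -0.28, -0.37 and -0.12 in lines 11 to 15. In line 15, 11 of 23 HIF genes and 7 of 12 glycolytic genes were higher with GFP than untransduced. Of all 12458 genes counted, 6247 to 6509 were higher with GFP in each line. GFP cultures differ from untransduced ones by the virus, the blasticidin and possibly the passage, which cannot be told apart.

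Set against the untransduced arrays of the same null lines in place of GFP, the Olig2 arrays gave 8 higher and 0 lower calls among the 33 members tested (24.2%, against 3.44% of all genes), with a median of 0.29 over the members and 0.02 over all genes. Bnip3 was higher by 1.50, Ddit4 by 1.06, Vldlr by 1.05, Slc2a3 by 0.97, Pdk1 by 0.95, Vegfa by 0.84, Aldoc by 0.74 and Pfkl by 0.66. These sizes are smaller than against GFP for 7 of the 8, and the comparison shares its Olig2 arrays with the one above. Slc2a1 (0.86) and Pgam1 were not called there.

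**Figure D4:**
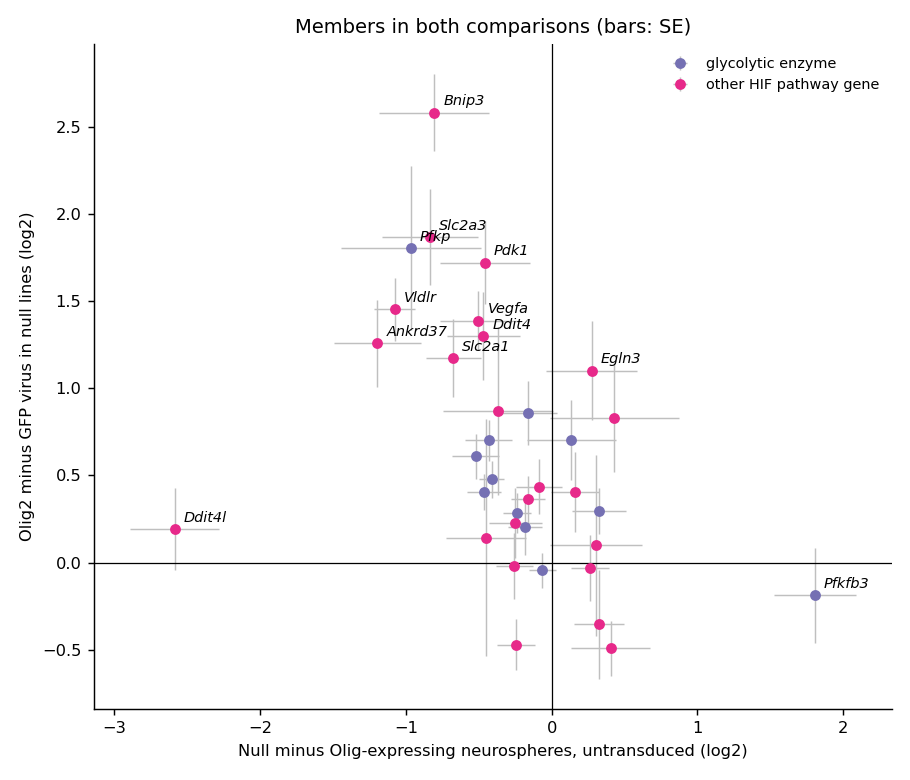
For each of the 35 genes, the log2 difference of null minus Olig-expressing untransduced cultures (x axis) and of Olig2 minus GFP virus in null lines (y axis), with standard errors as bars; purple is glycolytic and pink other HIF genes. The comparisons share no array but share lines 11 to 15. Vldlr (-1.08 and 1.45) lies at the upper left, while Ddit4l (-2.59 and 0.19) and Pfkfb3 (1.81 and -0.19) lie near 0 on the y axis.

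The genotype and virus comparisons share no array, although lines 11 to 15 are in both, and the members' values stood as follows. Vldlr, Slc2a1, Ankrd37, Ldha and Aldoa fell in null cultures and rose with the virus labelled Olig2 (-1.08 and 1.45, -0.67 and 1.17, -1.20 and 1.26, -0.41 and 0.48, -0.47 and 0.40). Ddit4l and Pfkfb3, which had 2 of the 3 smallest p in the genotype comparison, showed no call with the virus. Bnip3, Pdk1, Vegfa and Slc2a3, with large differences between the virus groups, had no call by genotype.

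In heterozygous lines, with 2 arrays a group, limma called 0 members between Olig2 and GFP virus (0% of all genes), while 12 of 35 members and 484 of 12458 genes had an unadjusted p under 0.05. The sign was mostly the same: 29 of 35 members were positive, 21 of 23 HIF genes (median 0.50) and 8 of 12 glycolytic genes (median 0.14), against a median of -0.03 over all genes. The smallest p was that of Ddit4l, at 353.9 and 341.5 with GFP and 1384.3 and 1392.8 with Olig2 in lines 11 and 15 (1.95, SE 0.29, adjusted p 0.305). Vegfa read 1352.2 and 1835 against 2467.1 and 3859.5 (0.96, adjusted p 1). Ankrd37 read 197.1 and 316.6 against 495.5 and 717.7 (1.20, adjusted p 1). In each of the 3 the Olig2 arrays lay above the GFP arrays, as they did for 21 of the 35 members, and they lay below for 4. Of all genes tested, 15.1% lay fully above and 20.3% fully below. The Olig2 array of line 11 was nonetheless below the untransduced array of that line for 20 of 23 HIF genes, with a median of -0.36, while that of line 15 was above it for 18 of 23.

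The difference between the genotypes in this effect was tested directly, with 0 members called (0.0562% of all genes) and 10 of 35 (28.6%) at an unadjusted p under 0.05, against 10.7% of all genes. Ddit4l had the smallest p (-1.76, adjusted p 0.132), higher with Olig2 virus in both heterozygous lines and in 2 of 3 null lines by far smaller amounts. Bnip3 followed with 1.53 (adjusted p 0.158) and Vldlr with 0.95 (0.29), both larger in null lines. On the GFP arrays alone, null lines were lower than heterozygous lines for Bnip3, which read 431.7, 645.2 and 398.1 against 1255 and 1963.2 and fell by 1.67 ± 0.25 (SE; adjusted p 0.00613); it was the only member called, against 1.7% of all genes, and the call was lost without the GFP array of heterozygous line 15. The count there was 4 without the Olig2 array of null line 14, 3 without that of line 13, and 2 without either virus array of line 12 or the GFP array of line 13. With 75th percentile scaling Pfkfb3 was called higher beside it (1.36, adjusted p 0.0439). These comparisons share the GFP arrays with those above.

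Other genes of the pathways were read beside the members in null lines. Of 27 other HIF pathway genes 8 rose with the virus labelled Olig2 and 0 fell (median 0.30): among them Ppp1r3c, a glycogen synthesis scaffold, rose by 1.66, Ero1a, a disulfide oxidase, by 1.52, the clock repressor gene Bhlhe40 by 1.26 and Fam162a by 1.20. Of 13 other genes of sugar metabolism 2 rose, Pgm1 by 1.35 and Pfkfb2 by 1.14. Of 18 genes of mitochondrial oxidation limma called 0, with 4 at an unadjusted p under 0.05 and a median of 0.01. Of 12 genes of the integrated stress response Atf4 rose by 0.85 and Hspa5 fell by 1.27.

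In the embryo, null and heterozygous tissues were compared in forebrain and in spinal cord with 2 embryos a group. In forebrain limma called 0 members (0.0405% of all genes) and 4 of 35 had an unadjusted p under 0.05 (6.34% of all genes), led by P4ha1 at 364.9 and 473.5 in null and 562.3 and 727.3 in heterozygous embryos (-0.60, adjusted p 0.669), then Pfkfb3 (0.48) and Pgk1 (-0.20). In spinal cord it called 0 (0.13% of all genes) and 5 had an unadjusted p under 0.05 (6.01% of all genes), led by Pkm at 5989.3 and 6080.2 in null and 7496.9 and 7579.8 in heterozygous embryos (-0.32, adjusted p 0.508) and Ldha at 8148.5 and 5346 against 9131.8 and 9588.7 (-0.50, adjusted p 0.64). Tpi1 differed by -0.30 there (adjusted p 0.683). In each of P4ha1 in forebrain and Pkm, Ldha and Tpi1 in spinal cord the null embryos lay below the heterozygous ones. Of all genes tested, 18.1% lay fully below in forebrain and 17.8% in spinal cord. Oligodendrocyte markers moved with genotype in spinal cord, where 3 of 5 were called lower in null embryos, Olig1 and Olig2 themselves and Mbp. The pericyte and meningeal marker Dcn was called higher there (adjusted p 0.0431), and the summed signal was 18110.2 to 18167.7 against 12212.7 to 13898.1 over the pericyte and meningeal markers and 5908.7 to 6096.9 against 4042.7 to 4234.8 over the microglial ones. Their part in the members' values was not tested. For the difference of the genotype effect between the tissues it called 0 (0% of all genes), with 2 at an unadjusted p under 0.05 (5.71% of members and of all genes). Ddit4l, which separated the genotypes in culture, read 188.7 and 219.1 in null and 267.1 and 207.4 in heterozygous forebrain, and 582.7 and 448.8 against 459.3 and 356.1 in spinal cord, overlapping in both.

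Transcripts of several glycolytic genes differed between the tissues. Of 35 members 20 were called between spinal cord and forebrain (57.1%, against 40% of the 12342 genes tested, 21.3% higher and 18.7% lower): 15 were higher and 5 lower in spinal cord. Of the 12 glycolytic genes 8 were higher and 0 lower (median 0.49), and of the 23 other HIF genes 7 were higher and 5 lower (median 0.14). Both tissues came from the same 4 embryos.

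Aldoc, the aldolase of astrocytes, had the smallest p. It read 3073.1, 3241.4, 2922.6 and 3065.1 in forebrain of embryos 1 to 4 and 15732.3, 13412.5, 15055.7 and 13575.2 in spinal cord, and was 2.22 ± 0.07 (SE) higher in spinal cord (adjusted p 2.49e-09). Aldoa read 5248.4, 4488.3, 5303.8 and 5308.9 in forebrain and 12431.1, 10936.9, 13023.4 and 11527.6 in spinal cord (1.23, adjusted p 2.62e-07). Pfkp read 2976.3, 2438.4, 3104.6 and 3243.4 in forebrain and 6540, 5939.3, 6529.5 and 5782.8 in spinal cord (1.08). None of these 3 overlapped between tissues. Tpi1 (0.60), Pfkl (0.58), Hk1 (0.50), Pgk1 (0.49) and Pgam1 (0.47) were also higher in spinal cord, while Ldha (0.21), Pkm (-0.01), Hk2 (0.34) and Pfkfb3 (-0.16) had no call.

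Among the other HIF genes, Bnip3 read 1096.1, 1431.1, 1305.2 and 1223.1 in forebrain and 2389.1, 1999.5, 2714.6 and 2573.6 in spinal cord (0.93). Slc2a1, which the vessel wall and astrocytes express, read 1157.3, 949.8, 1194.1 and 1278.8 in forebrain and 2525.6, 2227.2, 2215.5 and 1985.6 in spinal cord (0.96). Higd1a, a mitochondrial stress protein gene, read 980.8, 1149.3, 1040.2 and 1008.1 against 1884.3, 1813.7, 1758.5 and 1976.8 (0.82). Each of these was higher in all 4 embryos without overlap. P4ha2 (0.81), Epas1 (0.66), the alpha subunit of vessels and glia, and Ddit4l, at a mean of 461.7 against 220.6, were also higher in spinal cord (adjusted p 0.00111 for Ddit4l). Ndrg1 (-0.60), Kdm3a (-0.59), Mxi1 (-0.48), Vegfa (-0.39, adjusted p 0.0236) and Vldlr (-0.39) were lower. The Vegfa call was lost without the forebrain of embryo 1 or 3 or the spinal cord of embryo 2 or 4, and the Vldlr call with probe sets not marked as shared between genes. Hif1a did not differ on its main probe set (0.00, adjusted p 0.996), and another of its probe sets was lower in spinal cord by 1.38 (-1.38, adjusted p 0.00544).

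Slc2a3 differed between embryos as much as between tissues. It read 3134.8, 5062.9, 5973.1 and 3425.2 in forebrain of embryos 1 to 4 and 5704.4, 9786.9, 11612.2 and 5710.1 in spinal cord. Embryos 2 and 3, of different genotype, were the higher pair in both tissues, and a second probe set ranked the embryos alike (1104.6, 2028.3, 2574.8 and 1323.3 in forebrain, and 2187.9, 4950.1, 5730.3 and 2198.5 in spinal cord). The gene was called higher in spinal cord (0.88, adjusted p 0.019), a call lost without the forebrain of embryo 1 or 4 or the spinal cord of embryo 2 or 3. Another probe set was lower there (-0.97, adjusted p 0.0201), and with the Gapdh ratio as a covariate the difference was -0.41 with no call. Ldha was lowest in embryo 2 in both tissues, at 5423.4 and 5346.

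**Figure D5:**
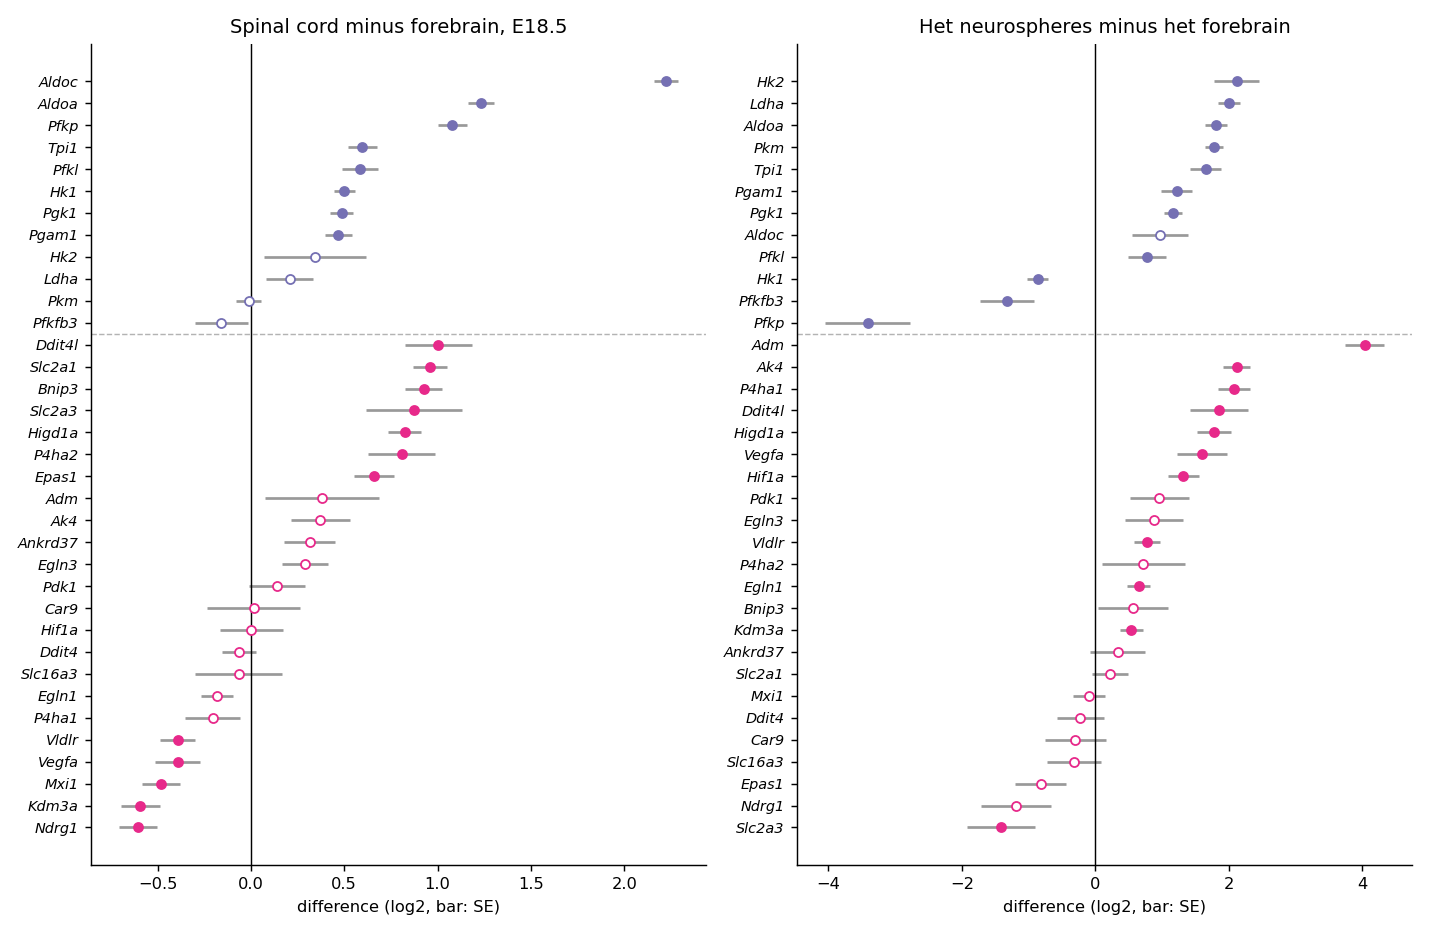
Log2 difference with its standard error for each gene, spinal cord minus forebrain (left, 4 embryos each) and heterozygous neurospheres minus heterozygous forebrain (right, 3 cultures and 2 embryos); purple genes above the dashed line are glycolytic and pink genes below it other HIF genes, and filled points were called. Aldoc stands farthest to the right in the left panel (2.22), and Adm (4.04) and Pfkp (-3.41) are the extremes of the right panel.

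Cell type markers and RNA quality moved with the tissues. All 7 astrocyte markers were higher in spinal cord (median 2.65), with a summed signal of 28239.5 to 33719.1 against 7405.5 to 8716.8 in forebrain. Of 6 pericyte and meningeal markers 5 were higher, as were 4 of 4 microglial markers tested and 2 of 6 endothelial ones. The Gapdh 3' to 5' log2 ratio was 0.04 to 0.37 in spinal cord and -0.22 to -0.07 in forebrain, without overlap. With it as a covariate 7 members were called, 6 higher and 1 lower. Over all 12342 genes tested, calls went from 4939 to 1040 with the covariate. With probe sets not marked as shared between genes 12 were called, 8 higher and 4 lower. Aldoa, Aldoc, Higd1a, Pfkp and Slc2a1 were called without any 1 array and under every other setting tried in which they had a probe set. The part of cell composition was not tested. Of 18 mitochondrial oxidation genes 14 were higher in spinal cord, and of 13 other genes of sugar metabolism 5 were, led by the neuronal enolase gene Eno2 (1.74).

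Heterozygous cultures were last set against heterozygous forebrain, where culture, stage, region, Ink4a/Arf and EGFRvIII differ at once and cannot be told apart. Of 35 members 22 were called (62.9%, against 50.9% of the 13672 genes tested, 26.5% higher and 24.4% lower), 18 higher and 4 lower in neurospheres. Of the 12 glycolytic genes 8 were higher and 3 lower (median 1.19), and of the 23 others 10 were higher and 1 lower (median 0.65). No glycolytic gene overlapped between the 3 cultures and the 2 forebrains, where 67.5% of all genes tested did not overlap either. With probe sets not marked as shared between genes 14 members were called.

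Adm read 2882.6, 2188.1 and 3775.8 in heterozygous lines 11, 15 and 26 and 201.5 and 126.7 in forebrain of embryos 3 and 4, and was 4.04 ± 0.30 (SE) higher in culture (adjusted p 2.12e-09). Ldha read 31550.4, 28292.8 and 27927.5 in culture and 7285.7 and 7208.3 in forebrain (2.01). Hk2, the inducible hexokinase, read 1434.4, 1260.6 and 854.1 against 396.3 and 160.6 (2.12). All 3 were higher in each culture than in each forebrain. Ak4, a mitochondrial adenylate kinase, read 1995, 1604.6 and 1499 against 432.7 and 325 (2.12). P4ha1, which hydroxylates collagen, read 3466.9, 2839.7 and 2115.6 against 562.3 and 727.3 (2.08). Without overlap as well, Ddit4l was higher by 1.85, Aldoa by 1.81, Higd1a by 1.78, Pkm by 1.78, Tpi1 by 1.66, Vegfa by 1.60 and Hif1a by 1.32.

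Lower in culture were Slc2a3 and the 3 glycolytic genes Pfkp, Hk1 and Pfkfb3. Pfkp read 290.5, 448.6 and 173.5 in culture and 3104.6 and 3243.4 in forebrain (-3.41, adjusted p 0.000175). Hk1, the constitutive hexokinase of brain, was 0.86 lower, Slc2a3 1.41 lower (-1.41, adjusted p 0.0281) and Pfkfb3 differed by -1.33. The Slc2a3 call was lost without heterozygous line 15 or 26 or the forebrain of embryo 3, with the Gapdh covariate and with probe sets not marked as shared, and the Pfkfb3 call without line 15 or the forebrain of embryo 3 and with the Gapdh covariate. Genes of the same enzymatic step thus went opposite ways, Hk2 higher and Hk1 lower, and Pfkl higher (0.77) and Pfkp lower; the Pfkl call was lost with quantile scaling (adjusted p 0.0947), and its sign turned with probe sets not marked as shared between genes. All 7 neuronal markers were lower in culture, with a median of -6.81, and all 6 proliferation genes tested were higher, with a median of 2.74; their part in these differences was not tested.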

How the data were processed

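The values deposited for the 30 arrays are intensity signals on a linear scale, made with MAS5 per the submitters' processing notes, which name no version. On each array the authors' scaling puts the mean at 500 once the top and bottom 2% of probe sets are set aside. Of 45101 probe sets, 34945 had 1 gene symbol, 932 several and 9224 none; 64 probe sets are controls. Each of 18193 genes was read from its probe set of highest mean log2 signal, and 18031 matched RefSeq (GRCm38.p6) by Entrez identifier; promoters came from RefSeq too. Tests ran on log2(signal + 16) in R 4.3.3 with limma 3.58.1 (eBayes with trend, two-sided, Benjamini-Hochberg over all genes tested). A gene was kept where it reached an array's median signal on at least the number of arrays in the smallest group. Files were read with the R package data.table (version 1.17.8), and summaries and plots made with python 3.11.15, pandas 2.3.3 and matplotlib 3.10.9. The fit was tested on simulated data.

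Members and lists were chosen with earlier results of these data known. All members are accounted for; values on every array are given for the called members of a comparison, at most the 8 of largest difference, or the 3 of smallest p where none was called, and for a few more members that a comparison turns on, which were picked with their values in view. At most 4 called genes of smallest p are named from each other list. A line or embryo number marks the same culture line or embryo, so arrays are paired; correlations of paired deviations were 0.0068 to 0.1298 for the virus arrays, -0.0965 to -0.0179 for GFP and untransduced arrays and 0.0255 to 0.0402 for the tissues. The fit has no block; the block, other pseudocounts (1 and 64), filters, scalings, probe sets, a Gapdh covariate, untransduced controls and leaving out each array were alternatives. P-values measure the spread between these cultures or embryos, whose number limits the precision.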

Additional observations from a re-analysis of the deposited data

How the results depend on the processing

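Counts of called members were recomputed under each alternative. Reading all probe sets in place of 1 a gene gave 15 calls for null against Olig-expressing cultures (7 with 1 probe set a gene), 10 against wild-type (3), 8 against heterozygous cultures (5), 36 for Olig2 virus in null lines (15), 2 for null against heterozygous GFP arrays (1), 46 for spinal cord against forebrain (20) and 47 for heterozygous cultures against forebrain (22); more probe sets were tested there. Probe sets without the suffix letters a, s or x, which mark possible sharing, gave 5 against wild-type, 3 against heterozygous cultures, 12 between tissues and 14 between cultures and forebrain. The Gapdh covariate gave 8 against heterozygous cultures, 7 for Olig2 virus in null lines and 7 between tissues. Untransduced controls for the Olig2 arrays gave 8. For null against heterozygous GFP arrays, pseudocount 64 gave 2, the filter on the mean signal 3 and 75th percentile scaling 2; quantile scaling gave 1 call for GFP against untransduced arrays (0). Calls over all genes or probe sets changed as well. With all probe sets, 1624 of 21569 were called for null against Olig-expressing cultures and 1787 of 22404 for Olig2 virus in null lines. Between tissues 8640 of 21652 were called, and between cultures and forebrain 12128 of 24989. With the Gapdh covariate, 227 of 12458 genes were called for Olig2 virus in null lines and 1040 of 12342 between tissues. The cause of these changes was not tested.

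Leaving out 1 array at a time gave 4 to 9 calls for null against Olig-expressing cultures, 3 to 4 against wild-type, 2 to 6 against heterozygous cultures, 7 to 14 for Olig2 virus in null lines, 0 to 4 for null against heterozygous GFP arrays, 18 to 20 between tissues and 17 to 25 between cultures and forebrain. Comparisons with 0 calls stayed at 0 in every such run.

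With the culture line or embryo as a block (pairing), 14 members were called for Olig2 virus in null lines, all higher, without Pfkp, and 21 between tissues; the block ended no other call of a member.

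Signs turned for Pgk1 in null against heterozygous forebrain (0.0623), Slc2a1 in the difference of genotype effects between tissues (-0.014), and Vldlr (-0.43) and Pfkl (-0.14) in cultures against forebrain, each with the probe sets not marked as shared, and for Slc2a3 between tissues (-0.41) with the Gapdh covariate. Signals near the added 16, as for Pfkp with GFP virus in null line 12, and groups of 2 arrays limit what can be seen.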
